A study of Mus musculus with 6 samples.

Results

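The genes described here are the guanylate-binding proteins (GBPs) and 3 immunity-related GTPases (IRGs) of the mouse, in aortic smooth muscle cells given the cytokine TWEAK. They were chosen by symbol: every symbol made of Gbp and a number in the deposited table, plus Igtp, Irgm1 and Iigp1. That pattern found 10 of the 14927 listed genes, of which 7 are GBPs (Gbp2, Gbp3, Gbp4, Gbp5, Gbp6, Gbp7 and Gbp9). All 10 passed the filter on low values, and GBP and IRG genes of other names in the mouse genome were not part of the choice. The RNA came from aortic smooth muscle cells of wild-type C57BL/6 mice, grown in culture over several passages, and no allele or strain differed between the groups. All cultures were first kept in low serum for 24 h. The vehicle group (3 libraries) then had vehicle and the TWEAK group (3 libraries) had recombinant TWEAK at 100 ng/mL, both for 24 h in 0.5% serum. TWEAK, a relative of tumour necrosis factor, acts through the receptor Fn14, and the series is titled for their part in the re-narrowing of arteries after angioplasty. The labels do not say whether animals were pooled or whether the numbered experiments used separate animals, so every p-value below measures only the spread between these libraries, which may be technical.

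GBPs are large GTPases of the dynamin superfamily. Interferon gamma induces them in most cell types, with IRF1 among the factors that act on them, and they gather on the membranes of intracellular bacteria and on the vacuoles of parasites such as Toxoplasma, where they open the membrane and expose microbial products to inflammasomes. IRGs are smaller GTPases of the same response in mice: Iigp1 (Irga6) is an effector that coats parasite vacuoles, while Irgm1 and Igtp (Irgm3) sit on the cell's own membranes and keep the effectors from loading there. In vascular cells both families are best known as markers of an interferon response.

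Reads summed over the listed genes ranged from 62632273 to 82118717 per library. The 3 experiments differed strongly: 48.6% of all genes (7251) differed among them in a limma model with treatment and experiment at an adjusted p under 0.05, so TWEAK was compared with the vehicle library of the same experiment and the unpaired result stands beside it. The smooth muscle markers Acta2 and Myh11 were abundant in every library, with 165752 to 191983 and 20215 to 39241 normalized counts with vehicle. Transcripts that mark macrophages, endothelial cells and adventitial fibroblasts were present too. Summed over 18 listed macrophage markers, vehicle libraries of experiments 1, 2 and 3 had 72604, 10286 and 3726 normalized counts, and over 15 endothelial markers 23183, 95237 and 60291. Over 10 adventitial fibroblast markers the sums were 229209, 230845 and 257315. Of 13 T and NK cell markers, 10 were not in the table, Cd3e among them. The table holds only genes with at least 1 read in every library, so their absence does not show that such cells were absent. The other 3 (Cd4, Cd8a and Lck) summed to 113, 273 and 150 normalized counts with vehicle in experiments 1, 2 and 3. In such bulk RNA a change in the number of cells of a type cannot be told apart from a change in the RNA per cell.

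RefSeq promoter windows, running from 250 bases before to 50 after an annotated start (build GRCm38.p6), were at hand for 6 of the 10 genes. The capitals below mark matches to the interferon-stimulated response element (ISRE), searched as GAAANNGAAA on both strands, with 10 bases on each side. They are shown because every one of these 6 genes had a match.
Gbp5, chr3:142496759-142496788, plus strand: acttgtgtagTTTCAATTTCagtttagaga
Gbp7, chr3:142530273-142530302, plus strand: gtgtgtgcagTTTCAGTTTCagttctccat
Gbp3, chr3:142559989-142560024, plus strand: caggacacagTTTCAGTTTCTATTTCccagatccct
Gbp2, chr3:142620594-142620623, plus strand: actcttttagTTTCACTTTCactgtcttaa
Igtp, chr11:58199512-58199541, plus strand: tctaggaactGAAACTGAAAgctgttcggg
Irgm1, chr11:48871425-48871460, minus strand: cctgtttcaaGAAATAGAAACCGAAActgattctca
Gbp3 and Irgm1 each hold 2 matches that overlap. The first base of the match lies at -165 in Gbp5, -53 in Gbp7, -45 and -39 in Gbp3, -59 in Gbp2, -34 in Igtp and -30 and -24 in Irgm1, counting the annotated start as +1. A second annotated start of Gbp3 has no match. The motif was found in 3.44% of all 32851 RefSeq windows of this length and in 3.00% of the 13784 windows of listed genes.

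The gamma-activated site, a promoter element of the interferon gamma response, searched as TTCNNNGAA, which is its own reverse complement, was found in 3 of the 6 genes (Gbp5, Gbp7 and Igtp) and in 8.30% of all windows. The NF-kB consensus, searched on both strands, was found in Gbp5 and Gbp2 and in 8.46% of all windows. No match of one motif overlapped a match of another. The windows of the genes with the largest and the smallest fold change among these 6, Gbp5 and Irgm1, are given whole, with all matches in capitals: 4 in Gbp5 (2 gamma-activated sites, the ISRE and the NF-kB motif) and the 2 ISREs in Irgm1.
Gbp5, chr3:142496684-142496983, plus strand: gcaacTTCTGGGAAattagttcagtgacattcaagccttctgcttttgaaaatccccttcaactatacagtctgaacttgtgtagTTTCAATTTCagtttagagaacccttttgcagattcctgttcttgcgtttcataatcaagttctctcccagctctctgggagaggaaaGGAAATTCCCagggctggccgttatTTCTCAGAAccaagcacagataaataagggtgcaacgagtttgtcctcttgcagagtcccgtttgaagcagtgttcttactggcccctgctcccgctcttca
Irgm1, chr11:48871371-48871670, minus strand: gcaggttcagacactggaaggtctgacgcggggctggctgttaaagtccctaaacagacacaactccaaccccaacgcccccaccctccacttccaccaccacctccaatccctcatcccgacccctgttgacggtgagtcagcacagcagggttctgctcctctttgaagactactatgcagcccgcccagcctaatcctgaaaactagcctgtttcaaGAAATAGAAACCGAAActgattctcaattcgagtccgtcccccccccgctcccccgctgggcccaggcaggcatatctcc
A match is a string of letters and not a measured binding site; binding was not measured in this series.

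TWEAK raised 9 of the 10 genes within experiments and lowered none, by limma with the experiment as a block (Benjamini-Hochberg adjusted p under 0.05 over all genes), where 8.11% of all listed genes were called higher and 5.55% lower. All 10 were higher with TWEAK in each of the 3 experiments. The 9 rises ran from 1.44-fold for Irgm1 to 6.45-fold for Gbp5, and the median log2 fold change of the 10 genes was 1.59, against 0.018 over all genes. Fold changes throughout are from log2(normalized count + 1), which understates the change of low genes. At least a doubling (a log2 fold change of 1 or more) was seen in 8 of the 10 and in 3.82% of all genes. For 8 of the 10 every TWEAK library lay above every vehicle library, which held for 8.6% of all genes. Without the block none of the 10 passed, where 0.0201% of all genes (3) did; 9 of the 10 had an unadjusted p under 0.05, as did 9.91% of all genes (1480). On recovered reads without the block edgeR called none of the 10 and 0.0134% of all genes (2), and DESeq2 called 6 of the 10 and 5.04% of all genes (752). By the adjusted p of the authors' deposited table, 9 of the 10 were higher with TWEAK, as were 10.8% of all genes. Their model formula was not found, but their values lay close to those of DESeq2 with the block. For Gbp7 they gave a log2 fold change of 1.199 (adjusted p = 1.25e-13). DESeq2 gave 1.202 (2.13e-13) with the block and 1.111 (0.520) without it.

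**Figure D1:**
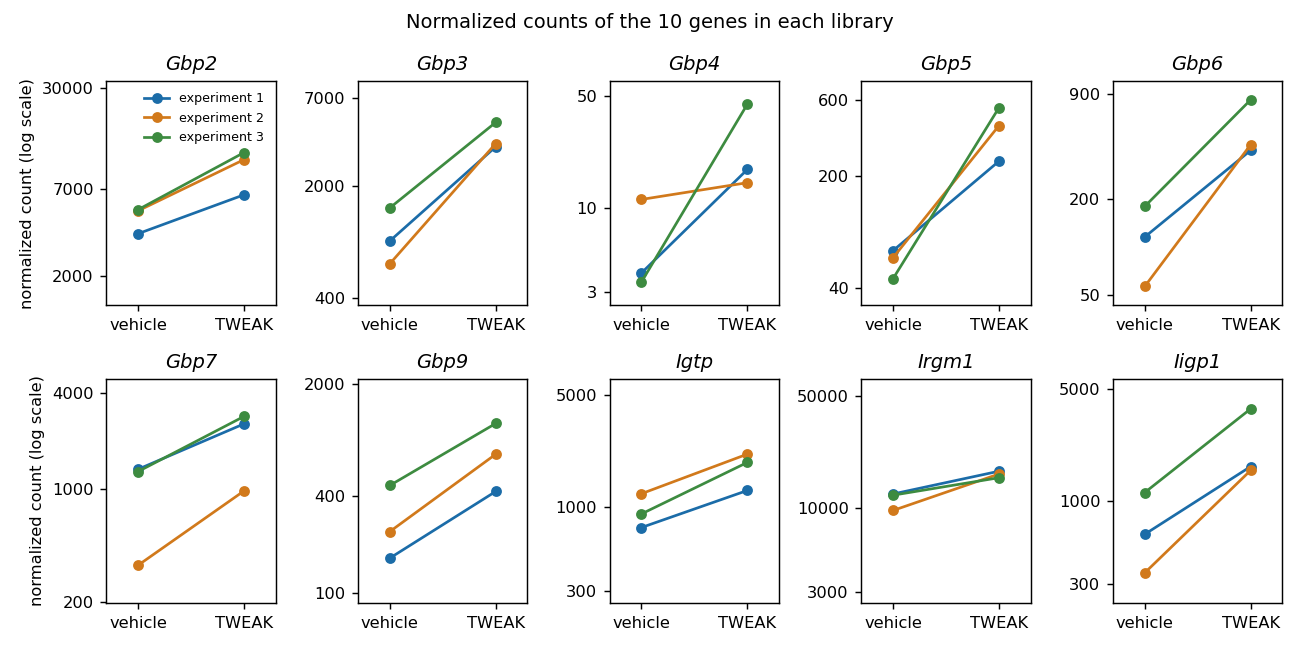
Normalized counts (log scale, each panel spanning the same 25-fold range) of the 10 genes in the 3 vehicle and 3 TWEAK libraries, with a line joining the libraries of 1 experiment. Each line goes up, and the lines of Gbp7, Gbp9 and Iigp1 are set apart by experiment more than those of Irgm1.

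The 4 GBPs of chromosome 3 come first. Gbp2, whose protein is prenylated and is recruited to Toxoplasma vacuoles, had 3697, 5134 and 5220 normalized counts in the vehicle libraries of experiments 1 to 3 and 6461, 10706 and 11847 in the TWEAK libraries. The groups did not overlap, and experiment 1 was lowest in both. Gbp2 rose 2.02-fold (log2 1.02, SE 0.09, limma adjusted p = 0.00461; 0.259 unpaired), and it was the most abundant GBP in every library.

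Gbp3 had 904, 652 and 1454 normalized counts with vehicle and 3498, 3664 and 4966 with TWEAK. Experiment 2 had the lowest vehicle value and the largest ratio, 5.62-fold, so that the TWEAK libraries lay closer together than the vehicle libraries. It rose 4.20-fold (log2 2.07, SE 0.15, limma adjusted p = 0.00341; 0.123 unpaired).

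Gbp5, which in macrophages promotes assembly of the NLRP3 inflammasome, had 68.9, 62.2 and 46.1 normalized counts with vehicle and 249, 415 and 536 with TWEAK. The experiment with the lowest vehicle value, 3, had the highest TWEAK value, and the ratio was 3.61, 6.66 and 11.6 in experiments 1, 2 and 3. Its rise of 6.45-fold (log2 2.69, SE 0.33, limma adjusted p = 0.00858; 0.0809 unpaired) was the largest among the 10, and it ranked 45 of 14927 by fold change.

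Gbp7, which has been tied to assembly of the phagocyte oxidase in macrophages, had 1336, 337 and 1293 normalized counts with vehicle and 2564, 979 and 2853 with TWEAK. The groups overlapped, because both libraries of experiment 2 were low: its TWEAK library lay below the other vehicle libraries. Within experiments it rose 2.31-fold (log2 1.21, SE 0.13, limma adjusted p = 0.00675), while unpaired its adjusted p was 0.737.

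The other 3 GBPs lie on chromosome 5, and their separate functions are less well known. Gbp6 had 115, 56.6 and 179 normalized counts with vehicle and 399, 434 and 825 with TWEAK. It rose 4.93-fold (log2 2.30, SE 0.24, limma adjusted p = 0.00611; 0.178 unpaired), most in experiment 2, where the vehicle level was lowest. Gbp9 had 164, 240 and 467 with vehicle and 428, 730 and 1136 with TWEAK. The Gbp9 groups overlapped at the vehicle library of experiment 3, yet the ratios were even, at 2.60, 3.04 and 2.44, and it rose 2.67-fold (log2 1.42, SE 0.12, limma adjusted p = 0.00365; 0.436 unpaired).

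Gbp4 was the one gene that did not pass. Its values were 3.94, 11.3 and 3.46 normalized counts with vehicle and 17.4, 14.4 and 44.4 with TWEAK, resting on 3 to 12 and on 16 to 40 reads. All TWEAK libraries lay above all vehicle libraries, but the ratio ranged from 1.27 in experiment 2 to 12.9 in experiment 3. On the log2 scale the difference was 1.86 (SE 0.64, limma adjusted p = 0.126; 0.382 unpaired). Without experiment 2 it was 2.62 and passed (0.00533), and without experiment 3 it was 1.11 (0.404).

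Among the IRGs, Iigp1 rose most. It had 617, 355 and 1123 normalized counts with vehicle and 1632, 1545 and 3737 with TWEAK, and experiment 3 stood highest in both groups. The rise was 3.37-fold (log2 1.75, SE 0.15, limma adjusted p = 0.00416; 0.327 unpaired). The 2 regulatory members changed less. Igtp had 750, 1218 and 911 with vehicle and 1276, 2151 and 1909 with TWEAK, and rose 1.85-fold (log2 0.88, SE 0.09, limma adjusted p = 0.00592; 0.325 unpaired). Irgm1 had 12216, 9641 and 12006 with vehicle and 16940, 16275 and 15426 with TWEAK. Its groups did not overlap, and its rise of 1.44-fold (log2 0.53, SE 0.09, limma adjusted p = 0.0239; 0.212 unpaired) was the smallest of the 10. Leaving out experiment 1 ended the Irgm1 call (log2 0.56, adjusted p = 0.106).

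**Figure D2:**
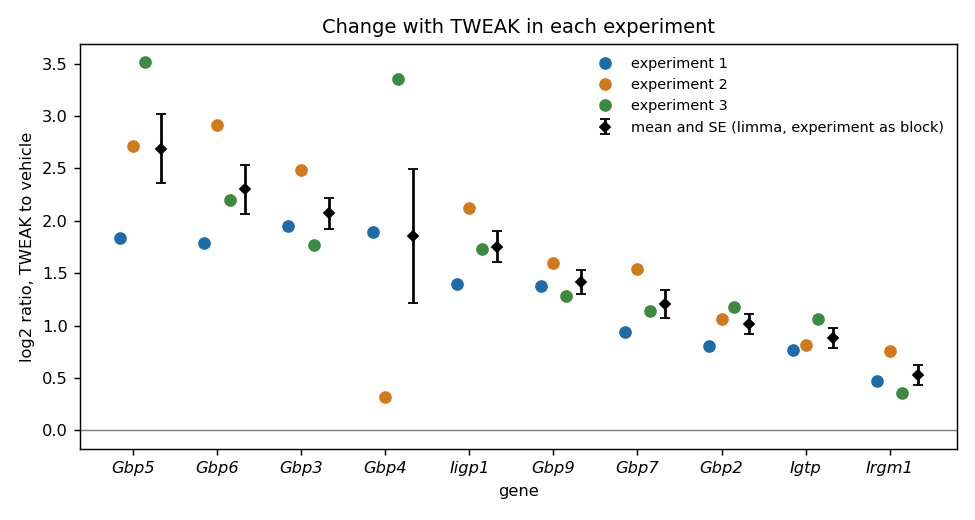
Log2 ratio of TWEAK to vehicle (vertical axis) for the 10 genes (horizontal axis, in order of the mean), with 1 coloured point per experiment and a black diamond for the mean and its SE from limma with the experiment as a block. All points lie above 0, and the ratios of Gbp4 are spread from 0.32 to 3.35 where those of Igtp span 0.77 to 1.07.

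The size of the ratio varied among experiments in a gene-specific way. In 6 of the 10 genes (Gbp3, Gbp6, Gbp7, Gbp9, Irgm1 and Iigp1) experiment 2 gave the largest ratio, and in the other 4 (Gbp2, Gbp4, Gbp5 and Igtp) experiment 3 did. Experiment 2 also held the lowest vehicle value of Gbp3, Gbp6, Gbp7, Irgm1 and Iigp1, and experiment 3 that of Gbp4 and Gbp5. The vehicle value is the divisor, so a low one by itself makes the ratio large. With 1 pair of libraries per experiment, differences in response between experiments could not be tested. Differences in level could: 7 of the 10 genes differed among experiments (limma adjusted p under 0.05, as did 48.6% of all genes), led by Gbp7 (0.00261), Gbp9 (0.00338) and Iigp1 (0.00683). Gbp4 (0.762), Gbp5 (0.764) and Irgm1 (0.352) did not pass that test.

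Per kilobase of exon (GENCODE M21 gene models, which may not be those the authors counted), the vehicle levels fell in the order Irgm1, Gbp2, Igtp, Gbp3, Iigp1, Gbp7, Gbp9, Gbp6, Gbp5 and Gbp4. Irgm1 had 4897 ± 620 normalized counts per kilobase and Gbp2 1862 ± 340 (SD, n = 3), and both stood clear of the gene next in order. From Igtp (475 ± 118) to Gbp5 (19.3 ± 3.84) the ranges of neighbours in the order overlapped, so their sequence is uncertain, and Gbp4 (1.37 ± 0.971) lay below all others. With TWEAK the first 2 places were the same, at 7034 ± 329 for Irgm1 and 3844 ± 1128 for Gbp2. Gbp3 came next, with 1324 ± 263, and did not overlap Igtp (880 ± 223), whose range it overlapped with vehicle. Igtp, Iigp1, Gbp7, Gbp6, Gbp9 and Gbp5 again overlapped with their neighbours, and Gbp4 remained lowest at 5.60 ± 3.64.

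**Figure D3:**
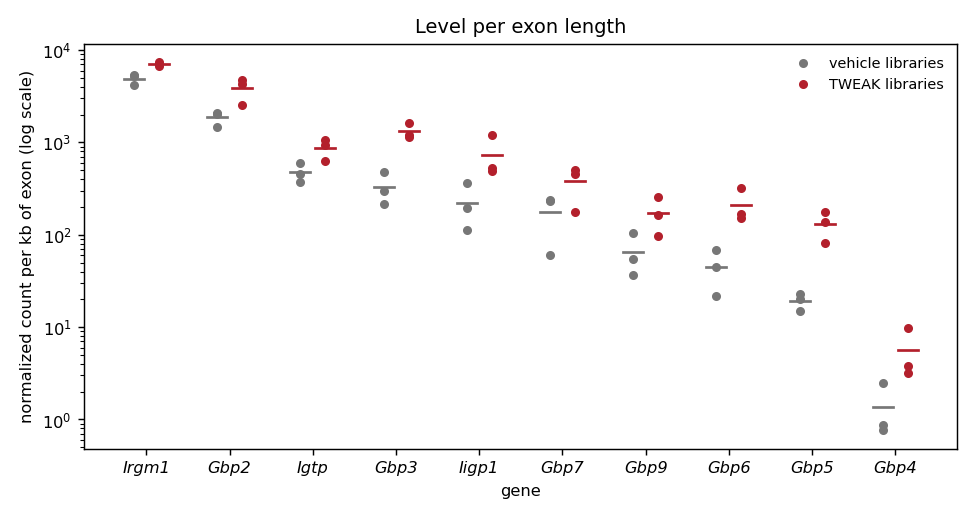
Normalized count per kilobase of exon (log scale) of the 10 genes, ordered by their vehicle mean, with a point per library (grey, vehicle; red, TWEAK) and a bar for the mean of 3. The levels span from about 1.37 for Gbp4 to 4897 for Irgm1 with vehicle, and the Gbp3 libraries with TWEAK lie above those of Igtp.

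The makeup of the family's RNA shifted with these unequal rises. Irgm1 took 66.4%, 57.2% and 57.9% of the summed level per kilobase in the vehicle libraries of experiments 1 to 3, and 56.5%, 48.0% and 40.7% with TWEAK. The share of Gbp3 went from 3.71%, 2.92% and 5.30% to 8.81%, 8.15% and 9.89%. Gbp5, whose rise was the largest, took 0.168% to 0.283% with vehicle and 0.626% to 1.07% with TWEAK. The 10 genes together had 19872, 17706 and 22702 normalized counts with vehicle and 33464, 36912 and 43281 with TWEAK, and the groups did not overlap.

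The smooth muscle, endothelial and adventitial fibroblast marker sums were lower with TWEAK in each experiment, while the macrophage sum had no common direction. Between vehicle and TWEAK libraries of the same experiment the macrophage sum differed by -0.061, 0.041 and 0.11 on the log2 scale, the endothelial sum by -0.29, -0.21 and -0.25, and the smooth muscle sum by -0.32, -0.51 and -0.49. The fibroblast sum differed by -0.26, -0.023 and -0.17. Of 10 smooth muscle markers 8 fell and 1 (Synpo2) rose, where 5.55% of all genes fell and 8.11% rose. Of 10 adventitial fibroblast markers 2 rose, Pdgfra (log2 1.44) and Dpt (1.64), and 3 fell, Pi16 (-1.35), Col14a1 (-0.34) and Gsn (-0.35). Gsn and Col14a1 had 98479 and 81045 of the mean vehicle fibroblast sum of 239123, so that sum mostly followed these genes. None of 18 macrophage and none of 15 endothelial markers passed limma's test with the block; with upper quartile scaling 1 macrophage marker was higher and 2 endothelial markers lower, and with quantile normalization 1 and 3 were lower. The 10 genes differed in which vehicle library was highest. For Gbp2, Gbp3, Gbp6, Gbp9 and Iigp1 it was that of experiment 3, where the macrophage sum was lowest and the adventitial fibroblast sum highest. For Gbp5, Gbp7 and Irgm1 it was that of experiment 1, where the macrophage and smooth muscle sums were highest. For Gbp4 and Igtp it was that of experiment 2, where the endothelial sum was highest. The order of Gbp5 over the experiments was that of the macrophage sum, and the order of Igtp that of the endothelial sum. Gbp7 and Irgm1 had the order of the smooth muscle sum (537203, 384172 and 486933 with vehicle). Gbp2 and Gbp9 had that of the fibroblast sum, and Gbp3, Gbp4, Gbp6 and Iigp1 that of none of these sums. Each order rests on only 3 vehicle libraries, so few orders are possible. These sums each have a different order, so any gene is likely to share that of 1 of them, and a match shows no link. The fibroblast order also rests on close values, 229209 and 230845 in experiments 1 and 2. Gbp3, Gbp6, Gbp7, Irgm1 and Iigp1 were lowest in experiment 2, Gbp2, Gbp9 and Igtp in experiment 1, and Gbp4 and Gbp5 in experiment 3. The part of these cell types in the results was not tested, nor in which of the cell types present the genes changed.

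**Figure D4:**
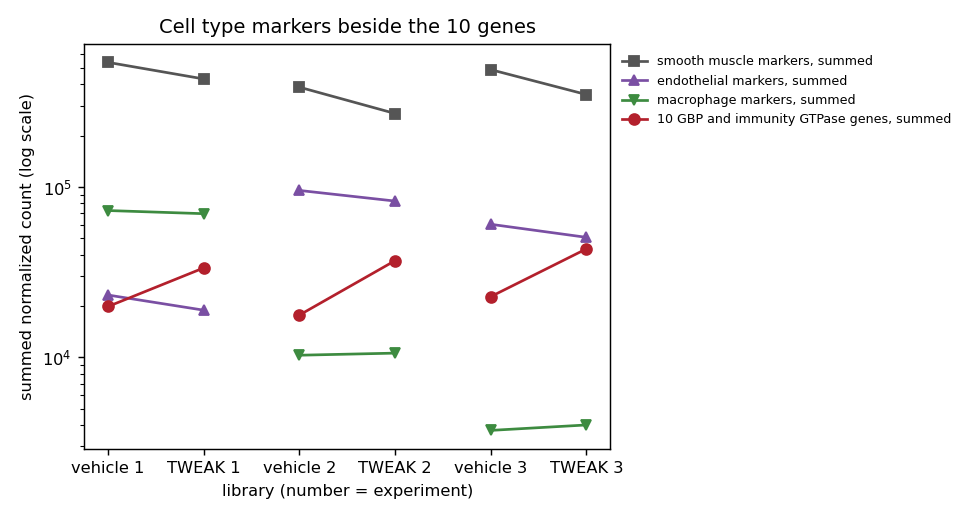
Summed normalized counts (log scale) of 3 lists of cell type markers and of the 10 genes in each library, with a line joining the libraries of 1 experiment. The red line of the 10 genes goes up in every experiment, while the macrophage sum differs by at most 0.11 on the log2 scale within an experiment and falls from 72604 to 3726 between vehicle libraries 1 and 3.

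Some of these counts can include reads of relatives, since the sources used here do not give how reads matching several genes were counted. In the longest GENCODE M21 transcript of Gbp6, 90.2% of the stretches of 50 bases also occur in transcripts of the gene model Gm43302 and 62.3% in those of Gbp10, so the value labelled Gbp6 may hold RNA of both. For Igtp 12.3% are shared with Irgm2, and for Gbp7 12.9% and Gbp4 12.8% with any other gene. In Gbp9 the share was 9.56%, in Gbp3 4.79% (all with Gbp7), in Iigp1 3.19% and in Gbp2 2.07% (all with Gbp2b). In Gbp5 (0.898%) and Irgm1 (0.815%) it was below 1%. Gbp5 and Irgm1, with the largest and the smallest rise, had the lowest shares.

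Other interferon-inducible GTPases rose with them. Of 13 listed genes of this kind that were measured, 9 rose and none fell (median log2 fold change 1.39). Over all genes the same fit called 8.11% higher and 5.55% lower. Ifi47 (Irgd), an IRG, went from 1508, 2160 and 1590 to 3731, 5795 and 4316 normalized counts and rose 2.62-fold (SE 0.07 on the log2 scale, limma adjusted p = 0.00295). Irgm2, another IRG of the regulatory kind, rose 1.80-fold (limma adjusted p = 0.00416), close to Igtp, with which it shares sequence. Gm4951 and F830016B08Rik, both unnamed gene models of the list, rose 3.18-fold and 3.30-fold, and the call of F830016B08Rik was lost without experiment 1. Gm12250 rose 6.96-fold, Tgtp2 4.25-fold, Mx1 4.93-fold, Mx2 1.89-fold and Gm4841 2.97-fold. Irgq, a related protein that does not belong to the interferon response, had 4521 to 4952 normalized counts with vehicle and 4708 to 4898 with TWEAK and did not pass (log2 0.021, limma adjusted p = 0.861). Of the 8 of these genes with a promoter window, 4 held the ISRE motif.

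Upstream of these genes, none of the 10 interferon genes looked for, Ifng and Ifnb1 among them, was listed. The table holds only genes with at least 1 read in every library, so their levels were not analysed here. Of 8 interferon receptor chains and Janus kinases, 4 rose and none fell (median log2 fold change 0.35), beside 8.11% and 5.55% of all genes. Ifngr1, the ligand-binding chain of the interferon gamma receptor, rose 1.79-fold (SE 0.07 on the log2 scale, limma adjusted p = 0.00383), from 5181 to 6342 normalized counts with vehicle to 9265 to 11431 with TWEAK. Ifngr2 (log2 0.38), Ifnar2 (0.37) and Ifnar1 (0.33) rose by smaller amounts. The calls of Ifnar1 and Ifnar2 were lost with TMM scaling, with edgeR under the block and without experiment 1 or 3. That of Ifnar1 was also lost with limma-voom, and that of Ifngr2 without experiment 1 or 3. Among transcription factor genes of the response, Irf1, which drives GBP transcription, rose 2.39-fold (limma adjusted p = 0.00295), Irf7 1.97-fold and Stat2 1.34-fold, the last not called without experiment 1 or 3. Of the 12 measured STAT, IRF and SOCS genes and Ciita, 8 did not pass: Irf2, Irf3, Irf8, Irf9, Stat3, Socs1, Socs3 and Ciita. Their log2 fold changes ran from -0.18 for Irf3 (limma adjusted p = 0.234) to 0.54 for the inhibitor gene Socs1 (0.0654), with 0.25 for Irf9 (0.0760).

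Downstream, 4 of 10 measured inflammasome genes rose and none fell (median log2 fold change 0.64), beside 8.11% and 5.55% of all genes. Casp4, the mouse caspase-11 that senses bacterial lipopolysaccharide which GBPs expose, had 768, 478 and 811 normalized counts with vehicle and 2143, 2157 and 2714 with TWEAK. The groups stood far apart, and the rise was 3.48-fold (SE 0.15 on the log2 scale, limma adjusted p = 0.00383; 0.0841 unpaired). Gsdmd, the pore-forming substrate of that caspase, rose 1.63-fold, Casp8 1.52-fold and the adaptor gene Pycard 1.61-fold. These 3 calls were lost without experiment 3, and those of Gsdmd and Pycard also without experiment 1. That of Pycard was also lost with TMM scaling and with edgeR under the block. Casp1 had a log2 fold change of 0.92 and Il18 of 0.68, and neither passed (limma adjusted p = 0.0596 and 0.0542).

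Few of the partners that act after transcription were called. Over all genes 8.11% were called higher and 5.55% lower, and lists this short do not set the partners apart from that. Of 11 genes of the autophagy conjugation system, which places IRGs and GBPs on vacuoles, none rose and 2 fell (1 to 3 under the other scalings), and the median log2 fold change was -0.089. Map1lc3a fell by 0.53 (SE 0.08, limma adjusted p = 0.0130) and Gabarap by 0.31 (SE 0.07, 0.0382). The Map1lc3a call was lost without experiment 3. That of Gabarap was lost with TMM scaling, with edgeR and limma-voom under the block, and without experiment 1 or 3. Of 12 ubiquitin ligase and adaptor genes of the vacuole, 1 rose: Trim21, a ubiquitin ligase, by 1.44-fold (limma adjusted p = 0.0234), a call lost without experiment 1 or 3. Of 8 prenylation and CaaX processing genes, which attach the lipid tail of proteins such as Gbp2 and Gbp5, none passed (1 fell with upper quartile scaling or quantile normalization). The most abundant of these, Arhgdia, had a log2 fold change of -0.16 (limma adjusted p = 0.201) and Icmt one of 0.011 (0.932).

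**Figure D5:**
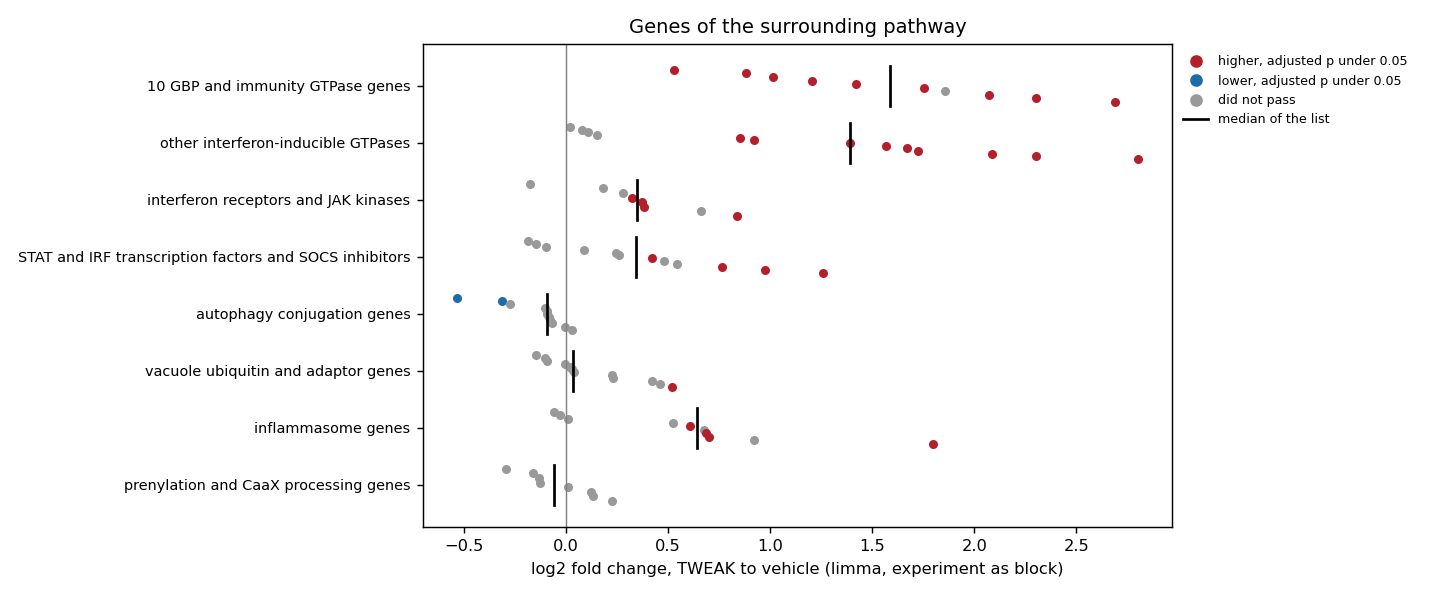
Log2 fold change of TWEAK against vehicle (horizontal axis, limma with the experiment as a block) for the 10 genes and for 7 lists of genes of the surrounding pathway, with a point per gene coloured by its call and a black line at each list's median. The 10 genes and the other interferon-inducible GTPases have medians of 1.59 and 1.39, and the autophagy and prenylation lists lie around 0.

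The genes whose pattern over the 6 libraries was most like that of the family were found by the root mean square difference of centred log2 values from the mean of the 8 members Gbp2, Gbp3, Gbp5, Gbp6, Gbp7, Igtp, Irgm1 and Iigp1. The search covered 12565 genes with a mean of at least 50, members aside. Symbols of unnamed gene models (Gm, LOC or Rik names, for example) were left out, so relatives such as Gm4841 and Gm12250 could not appear. Casp4 was nearest (0.17 on the log2 scale), followed by Ifit1 (0.19), an antiviral RNA-binding protein, Cxxc4 (0.21), Neto2 (0.22) and Fancd2 (0.23), a DNA repair protein. The median over the genes searched was 0.88, and the members themselves ranged from 0.29 for Gbp3 to 0.69 for Gbp5. Ifit1 had 2553, 1996 and 4260 normalized counts with vehicle and 5365, 7039 and 9487 with TWEAK, with experiment 3 highest in both groups as for Iigp1. Cxxc4 averaged 28.9 (SD 10.5) over the 3 vehicle libraries and 74.3 (SD 14.4) over the 3 TWEAK libraries. Each vehicle value lay below 50, so the gene met the filter of 50 only through the TWEAK libraries. Genes picked for likeness to a profile that is higher in every TWEAK library are likely to be called. That Cxxc4 passed in the blocked fit (limma adjusted p = 0.0422) is therefore no separate finding. Its call was lost with TMM scaling, with edgeR and limma-voom under the block, and without experiment 1 or 3. The likeness rests on 6 libraries that share treatment and experiment.

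The nearest listed genes beside the clusters were read from the RefSeq gene order of GRCm38.p6. The chromosome 3 cluster lies between Pdlim5, a muscle PDZ and LIM domain protein, and Gtf2b, a general transcription factor. Neither passed (log2 0.14 and -0.054, limma adjusted p = 0.439 and 0.684). The chromosome 5 cluster lies between Zfp951, which did not pass (log2 0.19, limma adjusted p = 0.560), and Lrrc8b, a subunit of volume-regulated anion channels. Lrrc8b had 1076, 350 and 722 normalized counts with vehicle and 1853, 960 and 1936 with TWEAK, and it rose 2.33-fold within experiments (log2 1.22, SE 0.16, limma adjusted p = 0.00966; 0.502 unpaired). Like Gbp7, it was lowest in both libraries of experiment 2. Beside Igtp lie Gm12250 and Irgm2, which rose. Beside Irgm1 lie Trim7 (log2 0.31, limma adjusted p = 0.175), which passed in 1 of 11 blocked alternatives (without experiment 2), and Gm5431 (0.082, 0.797); neither passed with all libraries. Iigp1 lies between F830016B08Rik, which rose with all libraries but did not pass without experiment 1, and Smim3, which did not pass (log2 0.012, limma adjusted p = 0.934).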

How the data were processed

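Total RNA of 6 libraries (3 vehicle, 3 TWEAK) was sequenced after standard Illumina library preparation, per the labels. The authors deposited 1 table with normalized counts per library, a signal made by dividing read counts by 1 size factor per library, and their mean, log2 fold change with its standard error, Wald statistic (a score), p-value and adjusted p-value, per the file headers. DESeq2 was used, per the submitters' processing notes; no aligner, counter, strand setting, build or annotation was found in the sources used here. Columns were matched to samples by treatment and experiment number in the header and title.

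Values were compared as log2(normalized count + 1), mean at least 1, with limma 3.58.1 (R 4.3.3, trend, robust, two-sided), adjusted over all 14927 genes, threshold 0.05. The design was unpaired, with the replicate number as a block as the alternative. The block was used for the calls in the text because deviations from the group mean correlated between libraries of the same number across genes. These correlations were 0.879, 0.868 and 0.734 (genes are not independent replicates). For different numbers they lay between -0.760 and -0.126. Deviations cancel within a group, so negative values there follow from the positive ones and are no further support. All values were whole multiples of 1 read within 0.01 (100%), so edgeR 4.0.16 and DESeq2 1.42.0 were run on these reads. The unpaired limma fit and the blocked limma, edgeR, DESeq2 and limma-voom fits were tested on simulated data, and the other settings were not. No 2 libraries were duplicates (lowest chi-square per degree of freedom 90.7). 

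The members and the gene lists were chosen with earlier results of these data known. The plan named 8 members, and the symbol pattern also matched Gbp4 and Gbp9, which were added. Named genes were the members and up to 4 called genes with the smallest adjusted p of each list (where none was called, the 2 most abundant). The 5 nearest profiles and the chromosomal neighbours were also named. A nearest profile needed a mean of at least 50 and a symbol that is not an unnamed gene model. Tgtp2, Gm12250, Mx1, Mx2, Gm4841, Irgq, Casp1 and Il18 were named after their values were seen. So were the STAT, IRF and SOCS genes that did not pass. The table lists no gene without a read in a library, so absent genes were not analysed here. Results that need 1 gene of the list of transcription factors are not reported here.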

Additional observations from a re-analysis of the deposited data

How the results depend on the processing

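All 10 members were higher with TWEAK in each of the 218 combinations of member and alternative setting. Unpaired, none of the 10 members was called, none of the 8 planned members, 3 genes in all and none of the listed pathway genes. With the replicate block these counts were 9, 8, 2039 and 24. The block gave 9 and 8 members with every other blocked setting that kept all libraries, with these counts of all genes and of pathway genes: pseudocount 8, 2081 and 24; a mean of at least 50, 2005 and 24; upper quartile scaling, 2983 and 31; TMM scaling, 1778 and 20; quantile normalization, 3132 and 31; edgeR, 1744 and 20; DESeq2, 2702 and 31; and limma-voom, 1865 and 22. Without the block, DESeq2 called 752 genes, 6 members and 12 pathway genes, edgeR 2 genes and no member, and pseudocount 8 gave 4 genes. Leaving out 1 library or experiment, the counts ran from 0 to 3902 genes, 0 to 10 of the 10 members, 0 to 8 of the 8 and 0 to 31 pathway genes. With the block, leaving out experiments 1, 2 and 3 gave 695, 3902 and 666 genes, 8, 10 and 9 of the 10 members, 7, 8 and 8 of the 8 and 17, 31 and 11 pathway genes. Without the vehicle library of experiment 2 the unpaired log2 fold change of Gbp7 was 0.55. Fold changes near 0 changed sign for 6 genes: Icmt (-0.019 with upper quartile scaling, -0.043 without experiment 3), Pdlim5 (-0.016 without experiment 2), Zfp951 (-0.093 without experiment 2), Gm5431 (-0.0030 with quantile normalization, -0.033 without experiment 2), Smim3 (-0.018 with upper quartile scaling, -0.077 with quantile normalization, -0.055 without experiment 3), all with the block, and Gtf2b. Leaving out 1 library without the block, the ranges were -0.070 to 0.15 for Icmt, -0.31 to 0.44 for Pdlim5, -0.37 to 0.50 for Zfp951, -0.16 to 0.028 for Gtf2b, -0.43 to 0.48 for Gm5431 and -0.081 to 0.13 for Smim3. The cause of these changes was not tested. Depth limits Gbp4, which had 3 to 40 reads per library and no value under the filter of 50.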
